A study of Mus musculus with 12 samples.

Results

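The genes described here are 113 of 30994 counted genes in SIM-A9, a line of mouse microglia from the C57BL/6 strain, and were chosen by the share of their reads that the authors counted as nascent. A gene belonged to the set when it had a mean of 100 or more total reads per library and when its nascent reads, summed over 12 libraries, were 12% or more of its total reads. Of 9204 genes with that many reads, 157 reached the share, and 44 of them were left out, 11 as mitochondrial and 33 by symbols and symbol prefixes in the rule, such as those of Fos, Jun, chemokine, interferon-response and zinc finger genes. The nascent share chose these genes, so it is given below as a description and was not tested. The set held 106 protein-coding genes, 3 lincRNA genes, 2 loci of the annotation's TEC class, 1 antisense gene and 1 sense intronic gene.

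SLAM-seq marks RNA made while 4-thiouridine is present, because iodoacetamide turns the incorporated base into one that is read as a change of T to C. With a fixed labelling time, the nascent share of a gene's reads is large when its RNA is short-lived or when its transcription has recently risen, and small for long-lived RNA made at a steady pace. Short-lived mRNAs typically encode transcription factors, kinases and other regulators, and many carry AU-rich elements in the 3′ UTR that bind proteins which promote decay.

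All cells, the controls included, were first given 10 µM polymyxin B, an antibiotic that binds endotoxin, for 1 h in serum-free medium. They then received DMSO or 10 µM C13, which the series title describes as a MOK inhibitor, for 1 h, and afterwards 5 µg/mL of TDP-43 aggregates or of a sham preparation. Aggregates were present for 2.5 h before 100 µM 4-thiouridine was added for 90 min, 4 h in all. Either vehicle or C13 was combined with either aggregate preparation, which gave 4 groups of 3 libraries. The labels call these biological replicates without saying what separated them, so p-values measure the spread between these libraries. All 12 libraries were labelled, and a share without label was not analysed here.

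Libraries held 17436397 to 41779882 total reads and 552042 to 2722812 nascent reads. The nascent share of a whole library ran from 1.88% in C13 with sham replicate 3 to 7.11% in DMSO with sham replicate 2. Of 16 microglial and macrophage markers, 14 were at a mean of 1 CPM (count per 1000000 reads) or more. The 16 summed to 1922 to 2814 CPM, with Fcer1g the largest at a mean of 813 CPM. Tmem119, at 0.51 CPM, and C1qa, at 0.44 CPM, were the low ones, and P2ry12 was at 3.85 CPM. The markers of astrocytes, neurons, fibroblasts and lymphocytes summed to at most 4.20 CPM in any library. Those of oligodendrocytes summed to 4.68 to 45.6 CPM, with 1 of 6 genes at 1 CPM or more, Mbp at a mean of 21.7 CPM. Those of endothelial cells summed to 92.6 to 148 CPM, with 1 of 4, Kdr at a mean of 121 CPM.

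The 113 genes made up 0.598% of all total reads and 3.07% of all nascent reads. Their pooled reads were 16.6% nascent, against 3.24% over all genes. The median gene of the set had a share of 15.1%, and the median of the 9204 expressed genes was 2.68%. Just inside the limit lay Irak2 at 12.02%, Homer3 at 12.03%, Rnf145 at 12.06% and Aim2 at 12.09%. Just outside lay Dnase2a at 11.99%, Rint1 at 11.98%, Gtpbp6 at 11.91% and Psmg3 at 11.91%. On the limit of total reads, Sertad1 lay inside with a mean of 103 reads and Tfap4 outside with 98.9.

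The largest shares belonged to genes of unlike function. Ccdc36 (ENSMUSG00000047220, chr9:108403611-108428484 in GRCm38, minus strand), whose product acts in the formation of meiotic DNA breaks, had a summed share of 42.9%. Its share was 45.7%, 41.0% and 41.6% for DMSO with sham, 48.7%, 41.5% and 31.5% for DMSO with TDP-43, 39.9%, 44.0% and 36.4% in C13 with sham, and 52.5%, 51.1% and 51.0% in C13 with TDP-43. The 3 libraries of C13 with TDP-43 were above the other 9. Kif3a (ENSMUSG00000018395, chr11:53567379-53601967, plus strand), a motor subunit of the kinesin that carries cargo along cilia and axons, had a summed share of 42.2%, from 33.6% in C13 with sham replicate 1 to 49.0% in C13 with TDP-43 replicate 1. Ccdc36 had at least 1716 and Kif3a at least 1801 total reads in every library.

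The next 8 genes by share were Bet1l at 38.7%, Mir142hg at 34.9%, Pim1 at 34.9%, Trex1 at 31.6%, Phlda1 at 31.5%, Rassf1 at 31.0%, Aunip at 29.5% and Sesn2 at 26.5%. Bet1l encodes a Golgi SNARE, Mir142hg is the host transcript of a blood-cell microRNA, and Trex1 encodes an exonuclease that degrades cytosolic DNA. Pim1 (chr17:29490753-29496112, plus strand) encodes a short-lived serine/threonine kinase, and its share ran from 24.3% in DMSO with TDP-43 replicate 1 to 46.0% in C13 with TDP-43 replicate 1. Rassf1 encodes a Ras-association domain tumour suppressor, and Sesn2 encodes a sestrin, a stress-induced inhibitor of mTORC1 signalling. Some of these genes had few reads and shares that varied widely between libraries. Trex1 had a mean of 255 total reads, and its share ran from 0% in DMSO with TDP-43 replicate 3 to 76.6% in C13 with sham replicate 1. Mir142hg had a mean of 152 reads and ran from 0% to 59.1%.

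**Figure D1:**
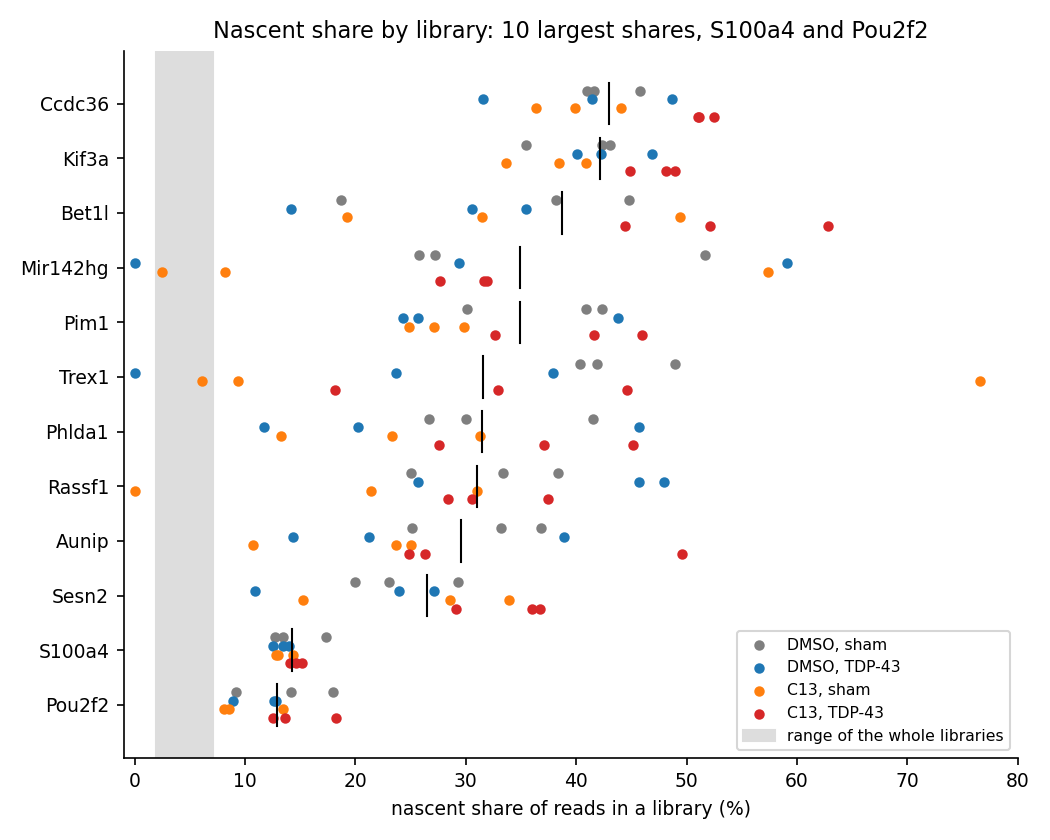
Nascent share of reads in each library (x axis, percent) for the 10 genes with the largest summed share and for S100a4 and Pou2f2, which had more nascent reads than any of the 10. Points are libraries coloured by group, the black line is the share of summed reads, and the grey band is the range of the whole libraries, 1.88% to 7.11%; Ccdc36, Kif3a and S100a4 stay well above the band in every library, while Trex1 and Mir142hg spread from 0% upward.

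Abundance was just as uneven. S100a4 (ENSMUSG00000001020, chr3:90603771-90606045, plus strand), a calcium-binding protein of motile and immune cells, held 72472 nascent reads, 19.4% of those of the set. Pou2f2 held 23456, Ccdc36 20641 and Kif3a 19163. Pou2f2 encodes the octamer-binding factor Oct-2. The share of S100a4 was 13.4%, 17.3% and 12.7% for DMSO with sham, 13.4%, 14.0% and 12.5% for DMSO with TDP-43, 14.3%, 12.97% and 12.8% in C13 with sham, and 15.2%, 14.6% and 14.0% in C13 with TDP-43.

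By role, the set held 21 transcription regulators with a median share of 14.2% (12.2% to 21.5%), among them Zbtb7a at 21.5%, Id3 at 15.01%, Id2 at 12.97% and Cebpb at 12.7%. Zbtb7a is a zinc finger repressor, Id2 and Id3 are inhibitors of basic helix-loop-helix factors, and Cebpb is a C/EBP factor of macrophages. Another 21 genes encode kinases and signalling proteins, with a median of 15.5% (12.03% to 34.9%). Among them were Pim3, a kinase related to Pim1, at 18.2%, and Pde4b, a phosphodiesterase that degrades cyclic AMP, at 20.3%. The 10 genes of innate immunity had a median of 13.7% and included Gpr84, a receptor for medium-chain fatty acids, at 21.5%, and Aim2, a sensor of cytosolic DNA, at 12.1%.

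The 10 genes of the ubiquitin system had a median of 15.8%, led by the ligase Trim8 at 21.4% and Lonrf1 at 20.2%. The 10 genes of chromatin and SUMO biology had a median of 14.6% and a narrow range, 12.9% to 16.7%, with Phf23 at 14.9% and the remodeller Chd8 at 14.7%. For RNA and ribosome genes the median of 10 was 15.2%, and the highest was Nop56, a core protein of box C/D snoRNPs, at 22.2%. The 10 genes of metabolism and mitochondria also had a median of 15.2%, with Ppp1r3b, a subunit that targets a phosphatase to glycogen, at 25.5% and Timm22, a subunit of the carrier translocase of the inner mitochondrial membrane, at 18.7%. Transport and cytoskeleton genes numbered 7, led by Kif3a and Bet1l. A further 9 genes were noncoding or uncharacterised, and 5 had other roles. 

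The share was also viewed in gene lists. Of 61 primary-response transcription factors, 48 reached 100 total reads, and their median share was 6.30%. Of these, 8 belonged to the set: Csrnp1 at 17.1%, Id3, Cebpd at 14.8%, Klf11 at 14.2%, Klf9 at 13.8%, Etv3 at 13.5%, Id2 and Cebpb. Among 30 expressed signalling feedback regulators the median was 4.34% and 4 belonged to the set: Pim1, Rassf1, Pim3 and Sertad1. Among 49 growth factors, cytokines, receptors and surface proteins the median was 5.05%, and Gpr84 belonged to the set. Lower medians were found for 100 ubiquitin ligases and deubiquitinases, at 3.42% with 3 in the set, for 85 chromatin modifiers and remodellers, at 3.17% with 2, and for 32 pause-release factors, at 3.14% with 1, Mepce. Among 25 genes of apoptosis and the DNA damage response the median was 3.46%, and Phlda1 and Sesn2 belonged to the set. Among 49 small GTPases and their regulators the median was 2.99%, and Cdc42ep3 belonged to it. None of 42 mRNA decay factors, with a median of 3.13%, was in the set. Zfp36, which binds AU-rich elements and promotes decay, had a share of 47.8% over a mean of 127 total reads and was left out by its symbol prefix. None of 5 listed noncoding and microRNA host genes, with a median of 2.73%, was in the set, and the list does not hold Mir142hg or the other noncoding genes that were.

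Few genes kept the 12% share throughout. It was reached in all 12 libraries by 7 genes, Ccdc36, Kif3a, Bet1l, Pim1, Pde4b, S100a4 and the noncoding Gm43684, and in 6 or fewer libraries by 33. The share was above that of the whole library in all 12 libraries for 54 of the 113. At the other end, 40 had no nascent read in at least 1 library. The spread over libraries was larger than counting error for every gene. The chi-square per degree of freedom of nascent against other reads had a median of 21.9 and ran from 3.30 to 261. It was taken against 1 share per gene, so differences in the share of the whole library are part of it. The largest value was that of Ctps2, a CTP synthase, whose share ran from 0% to 42.4%.

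The set followed the level of the whole library less than did other genes that the rule does not leave out by symbol or as mitochondrial. Between the libraries with the highest and the lowest overall share, DMSO with sham replicate 2 and C13 with sham replicate 3, the overall share differed 3.77-fold. The ratio of the same 2 libraries was 1.35 for S100a4, 1.13 for Ccdc36, 0.921 for Kif3a, 1.26 for Phpt1, a phosphohistidine phosphatase, and 1.28 for Timm22. Of 47 genes of the set with 1200 or more nascent reads, 17 (36.2%) had a ratio under 1.5 and the median was 1.99. Of 1788 other genes with as many nascent reads, 119 (6.66%) had a ratio under 1.5 and the median was 5.75. In the lowest library, 2 of the 47 and 23 of the 1788 had no nascent read. The share also chose the genes, so this contrast is a description. How a read was counted as nascent, and whether positions that differ from the reference were masked, is not given in the sources used here. Whether the steady shares of genes such as Ccdc36 and Kif3a measure new RNA was not tested, since no unlabelled library was analysed here.

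Summed over the set, the share was 16.3%, 19.1% and 15.98% for DMSO with sham, 15.7%, 18.1% and 13.2% for DMSO with TDP-43, 13.6%, 15.6% and 12.5% in C13 with sham, and 18.8%, 21.6% and 16.5% in C13 with TDP-43. Group means were 17.1% ± 1.75, 15.7% ± 2.48, 13.9% ± 1.57 and 19.0% ± 2.56 (SD, n = 3). The libraries of C13 with sham were all below those of DMSO with sham and of C13 with TDP-43, and overlapped those of DMSO with TDP-43. Expressed genes under the 12% limit were taken as the others here. Their share was 4.26% ± 2.35, 2.63% ± 0.584, 2.49% ± 0.700 and 2.71% ± 0.395 (SD, n = 3) in the same order. Without S100a4 the set's means were 18.02%, 16.2%, 14.1% and 20.3%. The number of genes without a nascent read moved with these values, and was 21 in both DMSO with TDP-43 replicate 3 and C13 with sham replicate 3 and at most 11 elsewhere.

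**Figure D2:**
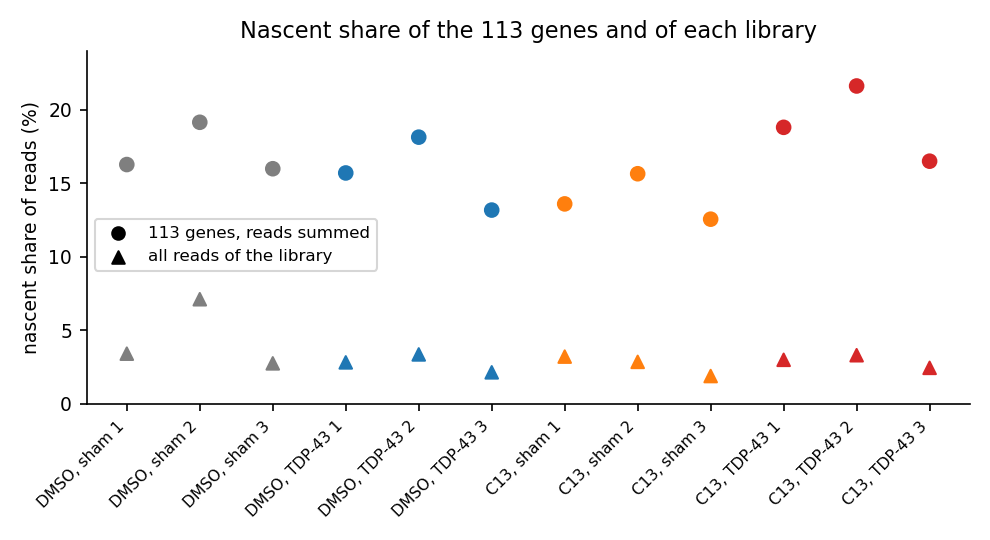
Nascent share of reads (y axis, percent) in each of the 12 libraries (x axis, coloured by group), for the 113 genes with reads summed (circles) and for all reads of the library (triangles). The circles lie between 12.5% and 21.6%, with the 3 of C13 with sham between 12.5% and 15.6%, and the triangles between 1.88% and 7.11%.

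The transcripts of the set had few exons. GENCODE M21 gave a 3′ UTR for 106 of its genes and for 8857 other expressed genes, and the transcript with the longest 3′ UTR was used for each gene. The median number of exons was 4 in the set and 9 in the others. Transcripts of 1 to 3 exons made up 40.6% of the set (43 genes) and 11.6% of the others, and transcripts of 1 exon 7.55% and 1.54%. The median gene spanned 11525.5 bases against 24924. The 3′ UTR was also shorter, with a median of 965.5 bases against 1211. The median content of T in the last 200 bases of the annotated 3′ UTR was 29.0% against 31.5%. Where the reads of these libraries lay in the transcript was not examined.

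**Figure D3:**
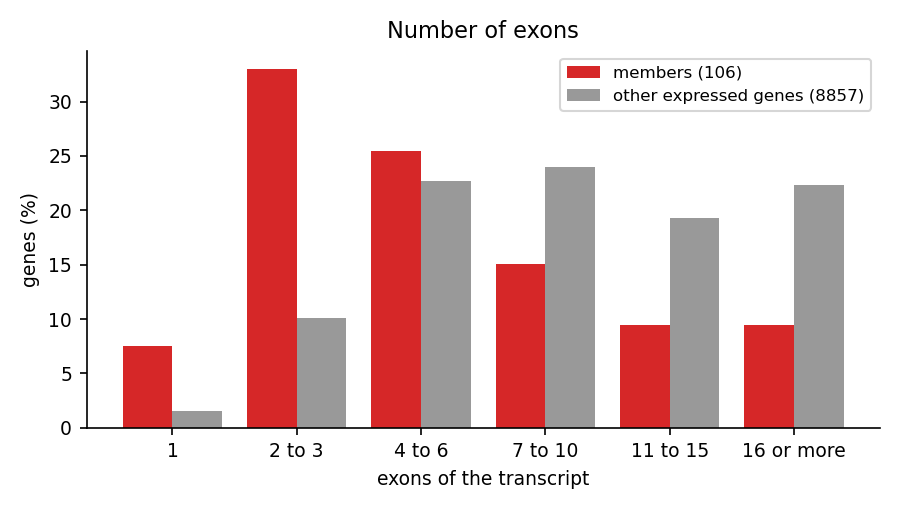
Percent of genes (y axis) by the number of exons of the transcript (x axis), for the 106 genes of the set with a 3′ UTR (red) and the 8857 other expressed genes (grey). Transcripts of 2 to 3 exons make up 33.0% of the set and 10.1% of the others, and those of 16 or more exons 9.43% and 22.3%.

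AU-rich elements were searched for in the 3′ UTRs as the nonamer TTATTTATT and the pentamer ATTTA, on the strand of the gene, where each nonamer holds a pentamer. The nonamer was found in 17 genes of the set (16.04%), in 7.97% of the other expressed genes and in 8.07% of all expressed genes. Among 3′ UTRs of 1000 bases or more it was in 13 of 50 genes of the set (26.0%) and in 12.1% of the others, and among shorter ones in 4 of 56 (7.14%) and in 2.69%. The pentamer alone did not separate them, at 66.0% against 70.5%. A match is a description of the letters and not a test of binding. Sites of 8 of the 17 genes, picked to show the element, are given below with 10 bases on each side, as mRNA in DNA letters, 5′ to 3′. The first nonamer of each 3′ UTR is in capitals. Ctps2 had 2 nonamers, and Pim1 had 3 that overlap within the stretch shown. Transcript sequences are those of GENCODE M21, in GRCm38.
Pim1, chr17:29495689-29495717, plus strand: tttaatgtatTTATTTATTtatttatttg
Phlda1, chr10:111508348-111508376, plus strand: tggattatgaTTATTTATTagttttttta
Pou2f2, chr7:25087898-25087926, minus strand: ggcttaatatTTATTTATTtatgtaattg
Csrnp1, chr9:119972067-119972095, minus strand: cactctgaatTTATTTATTtttttatgtt
Cebpd, chr16:15889228-15889256, plus strand: ggttggacatTTATTTATTgtaacagaac
Etv3, chr3:87539639-87539667, plus strand: ccttgtttttTTATTTATTccataattat
Tiparp, chr3:65554880-65554908, plus strand: ttccacacaaTTATTTATTttgccctagt
Ctps2, chrX:163031796-163031824, plus strand: tcagagcaccTTATTTATTtctttgttta
The other 9 genes with the nonamer were Mllt11, Gcc1, Msl2, Rusc2, Nuak2, Arhgap39, Zc3h10, Bcdin3d and Rnf145. Ccdc36, Kif3a and S100a4 had no nonamer in the 3′ UTR examined.

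Promoter motifs of the set were mostly near those of other expressed genes. RefSeq windows of 250 bases before to 50 after the start, in GRCm38.p6, were matched by symbol for 84 of the 113 genes and 7188 other expressed genes, and motifs were searched on both strands. The CRE TGACGTCA was in 3.57% against 3.62% (1.88% of all 27025 windows), the ETS site CCGGAAG in 21.4% against 21.5% (9.12%), and the AP-1 site TGANTCA in 4.76% against 4.52% (7.93%). The antioxidant response element TGACNNNGC was in 16.7% against 14.98% (12.5%) and the E-box CACGTG in 7.14% against 11.1% (7.24%). The TATA box TATAAA was in 9 windows of the set, 10.7% against 6.20% (14.2%). The CArG box was in 1.19% against 1.17% (1.57%), the palindromic NRF1 site in 1.19% against 2.49% (0.977%), and the NF-kB site in 0% against 0.334% (0.385%). The antioxidant element can share letters with the AP-1 site.

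All 113 genes passed the filter on low counts, which left 7078 genes in the nascent and 11827 in the total table, and each comparison was made by edgeR's quasi-likelihood test over those genes. The comparisons ask how C13 changed RNA with and without aggregates, and how aggregates changed it with and without C13, and those that share a group are not independent. In no comparison of nascent or total RNA did a gene of the set pass an adjusted p of 0.05. Over all genes the share called by edgeR was 0% in each comparison except 0.0141% (1 gene, outside the set) for TDP-43 against sham averaged over DMSO and C13 in nascent RNA. DESeq2 called 0 genes of the set in nascent RNA, and in total RNA 1, Rtp4, for TDP-43 against sham with C13 and averaged over DMSO and C13. The values below are therefore given as levels and spread, and in bulk libraries fewer cells making an RNA and less RNA per cell cannot be told apart. Reads of these same libraries chose the set, and 33 of its genes reached 12% in 6 or fewer of them. Counts and medians of the set beside those of all genes are therefore descriptions. For refits with 1 library left out or other library sizes, counts at unadjusted p under 0.05 lack the share over all genes. They show only how far these counts moved. CPM uses TMM-scaled library sizes within each table.

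With TDP-43, C13 against DMSO gave an unadjusted p under 0.05 for 2 of the 113 genes in nascent RNA, where 4.59% of all genes tested were there, and for 6 without DMSO with TDP-43 replicate 2. Ctps2 was at 21.7, 42.5 and 0 CPM with DMSO and at 403, 530.3 and 713 CPM with C13, without overlap. The fitted log2 difference was 4.62 ± 1.41 (SE, adjusted p = 0.99). In raw nascent reads these were 13, 65 and 0 against 330, 655 and 590. Total RNA of Ctps2 overlapped, at 40.1, 59.9 and 38.7 CPM with DMSO and 71.6, 43.2 and 44.4 CPM with C13. Cd3eap, a subunit of RNA polymerase I, was at 23.4, 19.6 and 1.93 CPM with DMSO and at 75.7, 164 and 135 CPM with C13, a log2 difference of 3.03 ± 1.03. Ppan, a ribosome biogenesis factor, was at 16.7, 42.5 and 0 CPM against 88.0, 129.6 and 95.5 CPM. Pvr, an immunoglobulin-like receptor, was at 11.7, 16.4 and 9.64 CPM against 78.2, 104 and 45.9 CPM. In nascent RNA the 3 libraries of each group did not overlap in these 4 genes.

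Over the set, nascent CPM did not overlap and was higher with C13 in 13 genes, where 6.02% of all genes tested did so, and lower in 1, Csrnp1, where 4.34% did so. The 13 included Ctps2, Cd3eap, Ppan, Nop56, Bet1l, Mepce and Sfn. In total RNA, 12 genes had an unadjusted p under 0.05, where 5.98% of all genes did, and 6 to 12 with 1 library left out, the fewest without C13 with TDP-43 replicate 2. Cd3eap was at 12.3, 8.99 and 13.5 CPM with DMSO and at 19.9, 24.04 and 28.6 CPM with C13, a log2 difference of 1.06 ± 0.31 (SE, adjusted p = 0.78). Zbtb12, a zinc finger factor, was at 9.36, 9.32 and 10.2 CPM against 36.8, 16.9 and 13.2 CPM, a log2 difference of 1.21 ± 0.40, and 0.65 without C13 with TDP-43 replicate 1. Both groups of both genes stood apart, and so did 14 genes of the set that were higher (6.97% of all genes tested) and 3 that were lower (6.48%).

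With sham, C13 against DMSO gave an unadjusted p under 0.05 for 15 genes in nascent RNA, where 6.89% of all genes tested were there. That count rested on single libraries and on the scaling: it was 5 without C13 with sham replicate 3, 5 without DMSO with sham replicate 1, 6 without DMSO with sham replicate 2, 22 without C13 with sham replicate 1, and 4 with the library sizes of the total table. Ccdc36 was at 1077, 467 and 1295 CPM with DMSO and at 1158, 2918 and 5644 CPM with C13. The groups overlapped, since C13 replicate 1 lay below DMSO replicate 3. The log2 difference was 1.78 ± 0.53 (SE, adjusted p = 0.67), and 1.01 without C13 with sham replicate 3, the library with the lowest overall share. With the library sizes of the total table it was 0.71, that of Bet1l below 1.05 and that of Mpc2 1.87. Bet1l was at 66.8, 133 and 195 CPM with DMSO and at 105, 956 and 696 CPM with C13, a log2 difference of 2.15 ± 0.69. Mpc2, a subunit of the mitochondrial pyruvate carrier, was at 23.9, 67.3 and 9.21 CPM with DMSO and 287, 226 and 667 CPM with C13. These did not overlap, with a log2 difference of 3.53 ± 1.10. In total RNA Mpc2 overlapped, at 38.6, 38.1 and 25.5 CPM against 33.6, 43.4 and 29.2 CPM, a log2 difference of 0.05. Rpl10, a ribosomal protein gene with many near-identical copies in the genome and so of uncertain count, had 52, 246 and 2 nascent reads with DMSO and 2, 0 and 0 with C13.

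Over the set, nascent CPM did not overlap and was higher with C13 in 11 genes, where 5.13% of all genes tested did so, and lower in 9, where 9.14% did so. The higher ones included Id2, Id3, Sesn2, Aim2 and Irak2, and the lower ones Tent5a, Ube2s and Cox20. Several abundant genes of the set were higher in CPM. S100a4 was at 4722, 4637 and 5773 nascent CPM with DMSO and at 7419.8, 8416 and 9854 CPM with C13, without overlap, a log2 difference of 0.76 ± 0.35 (SE, adjusted p = 0.71). The order of S100a4 rests on that scale: per 1000000 total reads it had 178, 358 and 164 nascent reads with DMSO and 252, 232 and 119 with C13, with overlap. Phpt1 was at 519, 567 and 828 CPM against 991, 1785 and 1742 CPM, without overlap, and at 19.6, 43.8 and 23.5 against 33.6, 49.3 and 21.01 nascent reads per 1000000 total reads, with overlap. C13 with sham replicate 3, in which 1.88% of all reads were nascent, was the highest of the 12 libraries in Ccdc36, Kif3a, S100a4 and Pim1, so the CPM of these genes moved opposite to the share of the library. The part of that in the difference was not tested beyond the values without the library. In total RNA, Ccdc36 was at 90.4, 91.2 and 87.5 CPM with DMSO and at 99.1, 189 and 179.8 CPM with C13, without overlap, a log2 difference of 0.80 ± 0.26 (SE, adjusted p = 0.75). Tent5a, a noncanonical poly(A) polymerase, was at 24.7, 24.4 and 29.5 CPM against 18.1, 13.3 and 12.8 CPM, also without overlap, a log2 difference of -0.83 ± 0.29. Higher without overlap in total RNA were 2 genes, Ccdc36 and the ligase Trim11 (4.41% of all genes tested), and lower 6 (5.72%). An unadjusted p under 0.05 was found for 9 genes, where 6.1% of all genes were there, and for 5 without either C13 with sham replicate 3 or DMSO with sham replicate 1.

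With DMSO, TDP-43 against sham gave an unadjusted p under 0.05 for 6 genes in nascent RNA, where 3.19% of all genes tested were there. It was 14 without DMSO with TDP-43 replicate 2, 2 without DMSO with TDP-43 replicate 3, and 2 with the library sizes of the total table. Mpc2 was at 23.9, 67.3 and 9.21 CPM with sham and at 202, 382 and 378 CPM with TDP-43, without overlap, a log2 difference of 3.24 ± 1.09 (SE, adjusted p = 1.00), and 1.99 with the library sizes of the total table. Spen, a large transcriptional corepressor, was at 101, 67.0 and 107 CPM with sham and at 177, 246 and 443 CPM with TDP-43, without overlap. Hist1h2ae, 1 of a cluster of near-identical histone H2A genes and so of uncertain count, was at 1.65, 6.09 and 11.97 CPM against 26.8, 22.9 and 206 CPM. Its log2 difference of 3.68 ± 1.32 was 1.90 without DMSO with TDP-43 replicate 3. Ctps2 was lower, at 181, 44.0 and 409.8 CPM with sham and 21.7, 42.5 and 0 CPM with TDP-43, a log2 difference of -3.24 ± 1.33, and -2.35 without DMSO with sham replicate 3. Nascent CPM did not overlap and was higher in 5 genes of the set, where 3.74% of all genes tested did so, and lower in 4, where 6.56% did so.

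In total RNA the same comparison had 15 genes of the set that were lower with TDP-43 without overlap, where 6.41% of all genes tested were, and 4 that were higher, where 5.49% were. The lower ones included Cd3eap, S100a4, Mepce, Taf1d and Klhl21. S100a4 was at 1349.7, 2144 and 1279.6 total CPM with sham and at 1057, 1047 and 1233 CPM with TDP-43, a log2 difference of -0.52 ± 0.28 (SE, adjusted p = 1.00). Sertad1, a cell-cycle regulator that binds CDK4, was at 3.99, 2.46 and 5.95 CPM against 0.560, 1.01 and 0.192 CPM, a log2 difference of -2.80 ± 0.88. Chd8 was at 132, 134 and 88.1 CPM against 79.7, 89.6 and 80.7 CPM, a log2 difference of -0.50 ± 0.20, with overlap. The higher ones were Ccdc36, Pim1, Csrnp1 and Iffo2. Unadjusted p was under 0.05 for 9 genes, where 4.36% of all genes tested were there, and for 3 without DMSO with sham replicate 2.

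With C13, TDP-43 against sham gave an unadjusted p under 0.05 for 9 genes in nascent RNA, where 8.45% of all genes tested were there, so the count of 9 in 113 is near the background. It was 16 without C13 with sham replicate 2, where the share over all genes is not given here. Tent5a was at 40.6, 38.9 and 3.97 CPM with sham and at 327, 280.2 and 62.8 CPM with TDP-43, without overlap, a log2 difference of 2.99 ± 1.00 (SE, adjusted p = 0.53). Gpank1, a G-patch protein, was lower, at 23.7, 149 and 429 CPM with sham and 14.7, 14.6 and 12.1 CPM with TDP-43. Its log2 difference of -3.85 ± 1.36 was -2.55 without C13 with sham replicate 3. Apobec1, a cytidine deaminase that edits RNA, was at 25.4, 84.9 and 5.95 CPM against 98.9, 432 and 196 CPM, without overlap. Over the set, 15 genes were higher without overlap (7.87% of all genes tested) and 2 lower (5.23%), Gpank1 and Aim2. Rtp4, an interferon-induced chaperone of receptor transport, had 2, 0 and 0 nascent reads with sham and 0, 92 and 90 with TDP-43.

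Rtp4 also had the smallest p of the set in total RNA here. It was at 4.04, 2.12 and 2.67 CPM with sham and at 8.52, 9.67 and 14.7 CPM with TDP-43, without overlap, a log2 difference of 1.90 ± 0.51 by edgeR (SE, adjusted p = 0.36). DESeq2 gave an adjusted p of 0.043 for the same counts. With DMSO, Rtp4 was at 12.4, 8.01 and 3.26 CPM with sham and at 18.6, 11.8 and 19.2 CPM with TDP-43, with overlap. All its counts were even, and it overlaps Gm45338 on its own strand and Masp1 on the other. Higher without overlap were 7 genes of the set (6.69% of all genes tested) and lower 5 (6.07%). In total RNA 8 genes had an unadjusted p under 0.05, where 8.84% of all genes did, and 5 to 12 with 1 library left out, the fewest without C13 with TDP-43 replicate 2 and the most without C13 with sham replicate 2.

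**Figure D4:**
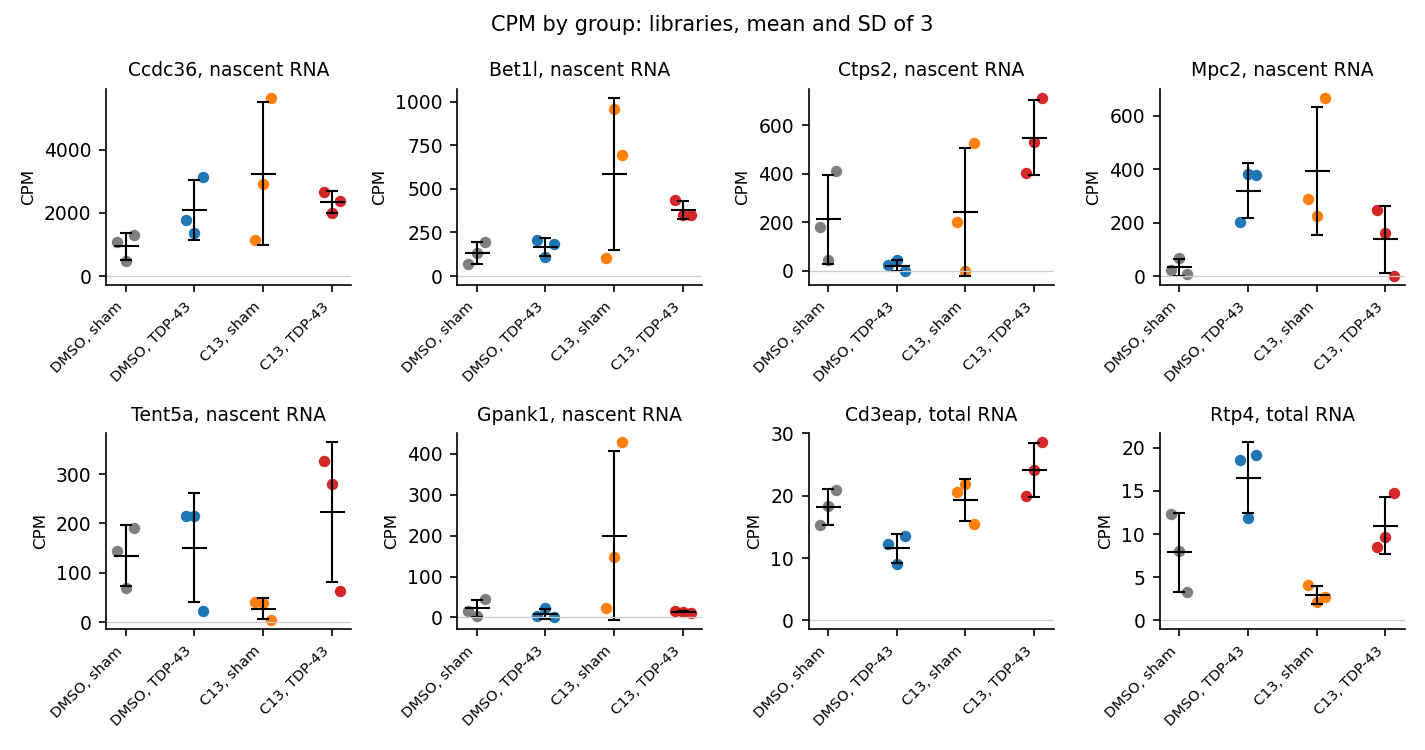
CPM (y axes) in each group (x axes) for 6 genes in nascent and 2 in total RNA. Points are libraries, and the bar is the mean with the SD of 3; C13 with TDP-43 is the highest group for Ctps2, the libraries of C13 with sham are widest for Ccdc36, Bet1l and Gpank1, and those of Rtp4 in C13 with sham lie between 2.12 and 4.04 CPM.

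Averaged over sham and TDP-43, C13 against DMSO gave an unadjusted p under 0.05 for 7 genes in nascent RNA (5.96% of all genes tested), and for 4 to 15 with 1 library left out, the most without C13 with sham replicate 1. The genes with the smallest p were Bet1l, with a log2 difference of 1.67 ± 0.48 (SE, adjusted p = 0.80), Ctps2 with 2.41 ± 0.90, Ccdc36 with 0.97 ± 0.37, and Rpl10, which was lower. The value of Ccdc36 was 0.60 without C13 with sham replicate 3 and 0.58 with the library sizes of the total table. In total RNA 9 genes were there (4.08%), and 14 without C13 with sham replicate 1. Rtp4 had a log2 difference of -1.01 ± 0.35 and Tmem115, a Golgi membrane protein, of -0.93 ± 0.34. Averaged over DMSO and C13, TDP-43 against sham gave 8 genes in nascent RNA (5.59%), 4 to 14 with 1 library left out, the fewest without DMSO with sham replicate 2 and the most without C13 with sham replicate 2, and 2 with the total table's library sizes. They were led by Gpank1 with -2.56 ± 0.92 (SE, adjusted p = 0.83), and followed by Rtp4, Hist1h2ae and Ube2s, an E2 enzyme of the anaphase-promoting complex, with 2.32 ± 0.96. In total RNA it gave 7 (4.73%), with Rtp4 at 1.49 ± 0.35 by edgeR (SE, adjusted p = 0.83) and 0.035 as the adjusted p of DESeq2, and Gpank1 at -1.65 ± 0.47.

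The interaction asks whether the effect of C13 differed between TDP-43 and sham. It gave an unadjusted p under 0.05 for 7 genes in nascent RNA (7.59% of all genes tested) and 9 in total RNA (7.96%), and for 3 to 15 and 6 to 13 with 1 library left out. The fewest came without C13 with TDP-43 replicate 2 in both, and the most without C13 with sham replicate 1 in nascent and without C13 with TDP-43 replicate 1 in total RNA. Mpc2 had an interaction of -4.75 ± 1.48 on the log2 scale (SE, adjusted p = 0.53), and of -2.78 with the library sizes of the total table. Its nascent CPM with C13 and TDP-43 was 249, 164 and 1.21. Ctps2 had 4.42 ± 1.79, and Cd3eap had 3.10 ± 1.37. Timm22 had -2.49 ± 0.85, from 303, 319 and 364 CPM for DMSO with sham, 349.6, 429.9 and 1459 CPM for DMSO with TDP-43, 424, 846 and 1573 CPM in C13 with sham, and 360.4, 543 and 243 CPM in C13 with TDP-43. Its value was -1.55 without DMSO with TDP-43 replicate 3, and -0.73 with the library sizes of the total table. In total RNA Zbtb12 had 1.91 ± 0.57 (SE, adjusted p = 0.39) and Nop56 had 1.24 ± 0.45.

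When a gene's nascent reads were set against its other reads in 1 fit, edgeR called 0 genes of the set and 0% of all genes in each of the 4 pairwise comparisons. An unadjusted p under 0.05 was found for 2 genes of C13 against DMSO with TDP-43 (3.55% of all genes tested), 3 of C13 against DMSO with sham (5.2%), 3 of TDP-43 against sham with DMSO (2.66%) and 6 of TDP-43 against sham with C13 (5.71%). With 1 library left out these counts were 1 to 4, 1 to 13, 1 to 7 and 3 to 9. The 13 came without C13 with sham replicate 1.

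The direction of the whole set in nascent RNA depended on the scaling and on single libraries. With TMM within the nascent table, the median log2 difference was 0.27 for C13 against DMSO with TDP-43, 0.45 with sham, 0.33 for TDP-43 against sham with DMSO and 0.15 with C13, against medians of 0.02, -0.04, -0.04 and 0.04 over all genes tested. Scaled instead by the total table's library sizes, the same medians were 0.46, -0.59, -0.42 and 0.62, against 0.14, -1.02, -0.84 and 0.35 over all genes. Those for C13 against DMSO with sham and for TDP-43 against sham with DMSO thus changed sign. With all 12 libraries the median of the set lay above that of all genes under both scalings. Nascent reads of these libraries chose the set, so this order is a description. Within the nascent table's scaling, the median for C13 against DMSO with sham was -0.15 without C13 with sham replicate 3, where 50 of the 113 were higher and the median of all genes was -0.25. That for TDP-43 against sham with C13 was -0.11 without C13 with sham replicate 1, below the 0.17 of all genes, with 51 higher. That for TDP-43 against sham with DMSO kept its sign but was 0.05 without DMSO with TDP-43 replicate 3. In total RNA the medians of the set were 0.13, 0.03, -0.17 and 0.01, and the second and the fourth turned sign without single libraries, to as low as -0.09 and -0.04.

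**Figure D5:**
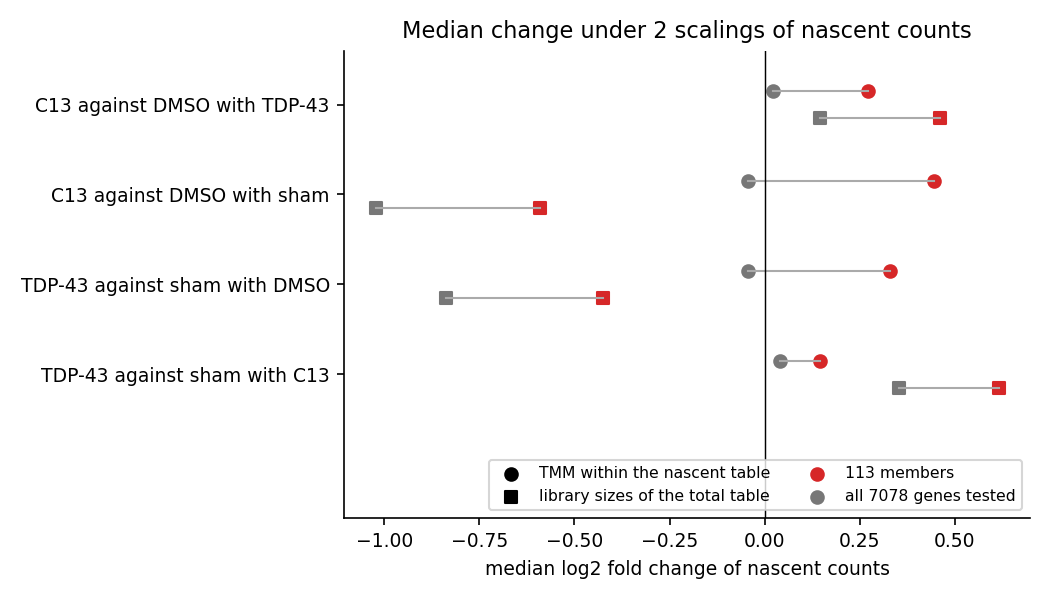
Median log2 fold change of nascent counts (x axis) for the 113 genes (red) and all 7078 genes tested (grey) in the 4 pairwise comparisons (y axis), with TMM within the nascent table (circles) or the library sizes of the total table (squares). The red marks lie to the right of the grey ones in every row, and the squares of C13 against DMSO with sham and of TDP-43 against sham with DMSO lie below 0. Nascent reads of the same libraries chose the 113 genes, so the order of red and grey is a description.

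The gene lists behaved as follows in the same tests. Of 44 primary-response transcription factors tested in nascent RNA, edgeR called 0 in either direction in each pairwise comparison. Their median log2 difference was -0.14 for C13 against DMSO with TDP-43, 0.56 with sham, 0.45 for TDP-43 against sham with DMSO and -0.21 with C13.  Of 25 signalling feedback regulators tested, edgeR also called 0, and the medians were 0.10, 0.50, 0.51 and 0.30 in the same order. Both lists were scaled by TMM within the nascent table, where the medians of all genes were 0.02, -0.04, -0.04 and 0.04. The list medians were not recomputed with the total table's library sizes or without single libraries.

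Some counts of the set may hold reads of other genes. A counted gene overlapped 27 of the 113 on the same strand (23.9%, against 14.7% of expressed genes) and 40 on the other strand (35.4% against 31.0%). Ndor1 (10524 bases) and the uncharacterised AL732309.1 (2045 bases) overlap, as do Pelo (1832 bases) and Gm49395 (66649 bases). Nascent CPM was equal within each pair in most libraries, at 126, 79.8 and 160 for both Pelo and Gm49395 for DMSO with sham. Sums and counts over the 113 genes hold both genes of each pair. Trex1 overlaps Atrip, Bet1l overlaps Gm45785, S100a4 overlaps Gm42674 and Csrnp1 overlaps Cx3cr1 on the same strand, and how reads were assigned there is not given in the sources used here. In 27 genes, Pim1, Rtp4, Rpl10 and Gpank1 among them, all 24 counts shared a factor above 1 (23.9% against 19.4% of expressed genes), which was 6 for Arhgef10l.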

How the data were processed

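SLAM-seq libraries of 3′ mRNA ends were made from 12 samples, per the labels' protocols. The authors deposited 2 tables of counts, nascent and total, with 30994 Ensembl genes each. GRCm38 is the build in the submitters' processing notes. Which aligner and counter were used, and how many base changes made a read nascent, was not given in the sources used here. Symbols, positions and transcripts came from GENCODE M21, which matched 30940 identifiers. Columns were mapped to samples by name.

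The members, lists and roles were chosen with earlier results of these data known. Genes were kept by filterByExpr, scaled by TMM within each table and tested with edgeR 4.0.16 in R 4.3.3 (glmQLFit and glmQLFTest, 12 libraries, 4 group means), with Benjamini-Hochberg adjustment over all genes tested and a threshold of 0.05. A gene's nascent and other reads were also compared in 1 fit with a library term. Each fit was first tested on simulated data. Replicates were distinct libraries, since the chi-square per degree of freedom between any 2 of a group was at least 21.6 (nascent) and 58.9 (total).

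Genes were named by rule: the 10 largest shares, the 5 genes with most nascent reads, the 4 (nascent) or 2 (total) with the smallest p in each comparison among those with a mean of 20 or more nascent reads in the higher group, up to 4 of each role and list, and the neighbours of each limit. Other names, such as the genes whose groups did not overlap and those whose sequences are shown, were picked once their values were known. The values of 1 gene that the rule names are not reported here.

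Alternatives were other size factors, other low-count filters, DESeq2 1.42.0, a replicate block, division of counts by their common factor, leaving out each library, the library sizes of the total table, and other limits for membership.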

Additional observations from a re-analysis of the deposited data

How the results depend on the processing

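Of 1085 counts of calls, shares and values of named genes recomputed under alternatives, 1010 stayed on their side of the threshold or within the stated range of the reported value, 68 moved, 7 passed the threshold anew and 0 changed sign. Medians of the set are not among them. In nascent RNA they turned from 0.45 to -0.15 and from 0.15 to -0.11 without 1 library of C13 with sham, and from 0.45 to -0.59 and 0.33 to -0.42 with the total table's library sizes. The calls over all genes, in the order C13 against DMSO with TDP-43, with sham, TDP-43 against sham with DMSO, with C13, C13 averaged, TDP-43 averaged and interaction, were 10, 29, 6, 30, 11, 18 and 38 in nascent RNA without the low-count filter and 33, 59, 10, 124, 18, 33 and 124 in total RNA. DESeq2 gave 18, 29, 7, 77, 10, 13 and 46 in nascent and 30, 41, 8, 99, 21, 33 and 108 in total RNA. The 4 pairwise fits of nascent against other reads gave 7, 12, 2 and 11 without the filter.

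Genes of the set were called only as follows. Without the filter, nascent RNA gave 1 for C13 against DMSO with TDP-43 (Ctps2, log2 difference 4.63), 1 with sham (Mpc2, 3.42), 1 for C13 averaged (Ctps2, 2.35) and 2 for the interaction (Mpc2, -4.60, and Ctps2, 4.56), and nascent against other reads gave 1 for C13 against DMSO with TDP-43. DESeq2 called Rtp4 in total RNA, 1 gene with C13 (1.91) and 1 averaged (1.49). The cause was not tested.

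Dividing counts by their common factor gave 2 calls in the total interaction. The replicate block gave 0 calls in nascent RNA for TDP-43 averaged, where 1 was reported, and 2 in the total interaction, and it called no gene of the set. Same-numbered libraries correlated at -0.03 to 0.06 in nascent and -0.03 to 0.13 in total RNA, so the numbers were not taken as pairs. In nascent and total RNA, 6 and 8 of 12 libraries correlated best with their own number. How many would do so by chance was not worked out.

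With 1 library left out, calls over all genes ranged from 0 to 1 in nascent RNA for TDP-43 against sham with C13, TDP-43 averaged and the interaction. In total RNA they ranged from 0 to 2 for C13 with sham and averaged, 0 to 4 for TDP-43 with C13, 0 to 1 averaged and 0 to 3 for the interaction, and in nascent against other reads from 0 to 1 for TDP-43 with C13. No gene of the set was called in any of these fits.

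A limit of 10% gave 193 genes and one of 15% gave 58. The median over genes, in place of pooled reads, was 10.3% in DMSO with TDP-43 replicate 3 and 10.2%, 13.6% and 7.53% in the 3 libraries of C13 with sham. Of the 113 genes, 40 had no nascent read in at least 1 library. In C13 with sham replicate 3, the library with the most total reads (41779882), 21 had none. The spread of the shares over libraries was larger than counting error for every gene, as given above.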
